A study of Mus musculus with 5 samples.

Results

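The CCR4-NOT deadenylase complex was examined through 10 of its subunit genes, out of 18349 genes listed in the mRNA-seq data: Cnot1, Cnot2, Cnot3, Cnot4, Cnot6, Cnot6l, Cnot7, Cnot8, Cnot10 and Cnot11. They were taken by gene symbol and not by a measured value, though earlier results of these data were known. Their gene spans held 167 of 90337 PABPC1 peaks and 14 of 11907 deletion sites on the gene's strand. The data came from MEL cells, a mouse erythroleukemia line grown in culture, with no genetic change or treatment named in the labels. In 3 biological replicates, RNA touching PABPC1 was recovered by CLIP-seq: ultraviolet light (400 mJ/cm2, given more than once on ice) linked protein to RNA, RNase One trimmed the RNA for 10 min, and an antibody to PABPC1 pulled down the complexes. In 2 samples, poly(A)-selected RNA was sequenced. Peaks and deletion sites came as lists in which the authors had merged the 3 CLIP replicates, and RPKM as a single figure per gene over both mRNA-seq samples. Without a figure per sample, nothing below carries a replicate error and no difference was tested.

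CCR4-NOT is the main enzyme that shortens the poly(A) tails of cytoplasmic mRNAs, a step that usually comes before decapping and decay. CNOT1 is the scaffold on which the other subunits assemble; a pair of exonuclease subunits of different families removes the adenosines, and adaptor proteins bring the complex to particular mRNAs. PABPC1 coats the poly(A) tail, so it stands on the substrate of this enzyme, and the peaks described here lie on the body of the mRNAs that encode the enzyme itself.

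The cells matched their label in most erythroid markers: 13 of 15 had an RPKM of at least 1, led by Klf1 at 428, while Kit (0.234) and Slc4a1 (0.122) were below 1. None of 4 macrophage, 4 T cell or 4 B cell markers reached 1, and 2 of 7 fibroblast markers did (Thy1 at 65.3 and Pdgfrb at 2.60). Megakaryocyte markers reached 1 in 3 of 4, with Pf4 at 216 and Itga2b at 103. The part of such cells or markers in the CCR4-NOT values was not tested.

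Each of the 10 mRNAs passed an RPKM of 1. The order of RPKM, reads scaled by gene length and library size, ran from Cnot1 at 140 through Cnot6 at 55.9, Cnot10 at 51.9, Cnot2 at 45.7, Cnot8 at 36.8, Cnot11 at 27.8, Cnot3 at 23.5, Cnot7 at 15.7 and Cnot6l at 11.05 to Cnot4 at 4.65. Cnot1 stood at the 92.1 percentile of the 12331 genes with an RPKM of at least 1 and Cnot4 at the 20.0 percentile. The median of the 10 was 32.3, against 19.6 for 10211 protein-coding genes past the same minimum. Whole read numbers could be recovered for the 4 nuclease genes. Cnot6 had 13017 reads (exact Poisson 95% interval of the RPKM 54.9 to 56.8), Cnot8 3415 (35.5 to 38.0), Cnot7 3225 (15.2 to 16.3) and Cnot6l 4017 (10.7 to 11.4). For the other 6 genes the RPKM fixes only the smallest possible number of reads, from 513 for Cnot3 to 41317 for Cnot1, and so the widest interval: 138 to 141 for Cnot1, 50.5 to 53.3 for Cnot10, 43.7 to 47.8 for Cnot2, 26.0 to 29.7 for Cnot11, 21.5 to 25.6 for Cnot3 and 4.39 to 4.92 for Cnot4. No neighbours in the order overlapped in these intervals, which cover counting error only and not the spread between samples. Exons of Cnot1, Cnot2, Cnot3 and Cnot7 overlap an annotated gene on the opposite strand, and the sources used here do not say whether the mRNA-seq counting used strand, so the RPKM of these 4 cannot be separated from antisense reads.

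PABPC1 peaks lay in exons of every one of the 10 genes, where 96.6% of protein-coding genes and 87% of all genes with an RPKM of at least 1 had one. The score of a peak was read as its height in tags, and the heights of a gene's exonic peaks were added up as its CLIP signal. Of the 167 peaks, 74 lay in 3' UTRs, 76 in coding sequence (CDS), 6 in 5' UTRs and 11 in introns. Summed height was greatest for Cnot6 at 1720, then Cnot6l at 1148, Cnot2 at 1031, Cnot1 at 783, Cnot7 at 441, Cnot11 at 312, Cnot4 at 263, Cnot10 at 140, Cnot8 at 131 and Cnot3 at 85. The order differed from that of RPKM: Cnot1, the most abundant mRNA, came after Cnot6, Cnot6l and Cnot2, and Cnot6l, with less mRNA than any member but Cnot4, came next after Cnot6. Over the 10 genes Spearman's rho of RPKM with summed height was 0.224, and over 9868 protein-coding genes with a peak it was 0.660; the points share 1 pooled library on each axis, and height, unlike RPKM, is not divided by length. A peak of 74 tags or more, the 90th percentile of all peaks, was found in 8 of 10 genes, the exceptions being Cnot3 and Cnot4, against 55.3% of protein-coding genes and 60.3% of those within the members' RPKM range.

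**Figure D1:**
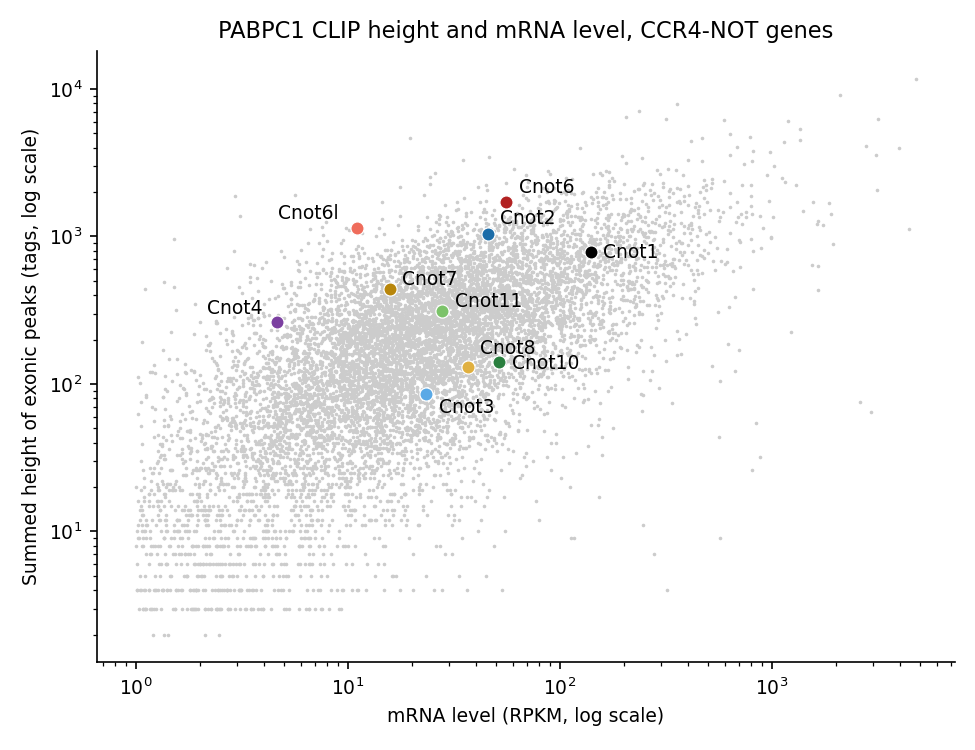
Summed exonic peak height (tags, log axis) against RPKM (log axis) for the 10 CCR4-NOT genes (coloured, named) and all other protein-coding genes with an RPKM of at least 1 and a peak (grey). Cnot6l and Cnot4 lie toward the upper edge of the cloud at their RPKM of 11.05 and 4.65, and Cnot10, at 51.9, lies toward its lower edge.

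Cnot1, the scaffold gene (chr8:95719451-95807464, minus strand, mm10), carried 36 exonic peaks with a summed height of 783 tags, and 30 of them lay in the CDS. Its tallest peak, 146 tags, was an exonic CDS peak at chr8:95753022-95753117 and not a 3' UTR peak. The 3' UTR still held 37.9% of the height on 11.4% of the exonic bases, with peaks of 122 and 77 tags within 405 nt of the stop codon. The CDS peak of 146 tags contained the gene's pair of adjacent deletion sites. A deletion site is a base at which a share of the tags lacks that base, as arises when reverse transcriptase passes a cross-linked nucleotide. At position 95753061 an A was missing from 10 of 146 tags, 6.85% (exact binomial 95% interval 3.33 to 12.2), and at 95753062 a T from 10 of 145, 6.90%. The sequence is shown because it places a site inside a CDS, over ATATAA; it is chr8:95753046-95753075, minus strand, with the deleted bases in capitals.
Cnot1: tccagcgaatataTAatcacccaccacatc

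CNOT2 and CNOT3 pair through their NOT boxes to form the module that docks on the scaffold's C-terminal end. Their mRNAs differed in peak height more than in RPKM (45.7 and 23.5). Cnot2 (chr10:116485161-116581511, minus strand) had 13 exonic peaks with 91.9% of the height in the 3' UTR, which held 46.3% of the bases. Nearly all of that came from 2 peaks: 516 tags over the last bases of the gene, at chr10:116485160-116485594, and 391 tags over the stop codon, at chr10:116486023-116486277. Cnot3 (chr7:3645268-3661109, plus strand) had 7 exonic peaks with a summed height of 85, and its tallest, 45 tags, lay in the CDS at chr7:3654138-3654200. Cnot3 has the shortest 3' UTR of the 10, 283 nt, with a height of 27 in 3 peaks.

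CNOT10 and CNOT11 form a module at the scaffold's N-terminal end. Cnot10 (chr9:114585878-114640184, minus strand) had 7 exonic peaks, a summed height of 140 and a tallest peak of 95 tags that lay from 63 to 263 nt after the stop codon; the gene had no deletion site. Without that peak the 3' UTR share of its height fell from 70.7% to 8.89%, so a single peak decides this value. Cnot11 (chr1:39534992-39546889, plus strand) had 4 exonic peaks, of which 1 of 256 tags, at chr1:39545069-39545401, held most of the height of 312. This peak was 333 nt wide and ran from the last coding exon across the stop codon to 135 nt beyond it; its midpoint fell in the CDS, which is why the 3' UTR share of height was 17.9% on 46.6% of the bases. Cnot11 was the only member with a 3' UTR share of height below its share of bases, and this rests on that peak: without it the remaining height was 100% in the 3' UTR. Its 2 adjacent deletion sites lay in that peak, 92 and 93 nt after the stop codon, with 45 deletions in 225 tags (20.0%) and 53 in 223 (23.8%, interval 18.3 to 29.9), the most deletions at any site of the 10 genes. On the basic transcripts the nearest annotated end was 1514 nt downstream of the stronger site, and on all annotated transcripts it was 42 nt downstream. The window, chr1:39545345-39545374, again holds ATATAA. The deleted bases as listed are in capitals; the T lies inside ATATAA, and the A is 1 of 3 adjacent A, so which of them was deleted cannot be told.
Cnot11: cttgatctaagaaATataaatgactttatt

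CNOT7 and CNOT8 are alternative exonucleases of the DEDD family (the CAF1 type) and occupy the same place in the complex. Their coding sequences are 72.4% identical over 855 aligned nt, with no identical stretch longer than 20 nt. Cnot7 (chr8:40492540-40515847, minus strand) had the lower RPKM, 15.7 against 36.8, and the greater summed height, 441 against 131, a difference of 1.75 on the log2 scale. Its tallest peak, 267 tags, lay 814 to 1084 nt after the stop codon, and 90.5% of its exonic height was in the 3' UTR. This peak covers the annotated end of a shorter transcript, 951 nt after the stop codon, which has AATAAA in its last 50 nt. Cnot8 (chr11:58104153-58118594, plus strand) had only 2 exonic peaks, both in the 3' UTR; the taller, 120 tags, ran to the annotated end of the gene and made up 91.6% of the sum. Cnot8 was the only member without a CDS peak, where 72.4% of protein-coding genes with a peak had one. Both mRNAs had deletion sites in or just before an AATAAA, the poly(A) signal hexamer. In Cnot7 an A was missing from 6 of 99 tags (6.06%, interval 2.26 to 12.7) at position 40492999. This site lies 988 nt after the stop codon, just past the end at 951 nt and 452 nt before the next annotated end. In Cnot8 adjacent bases were missing from 6 of 103 (5.83%) and 6 of 108 tags (5.56%), 25 and 24 nt before the annotated end, where a poly(A) signal is usually found. The listed Cnot8 bases belong to a run of 4 A that extends into the AATAAA. The listed Cnot7 base is 1 of 3 adjacent A inside the hexamer. Which A of either run was deleted cannot be told. The windows are chr8:40492984-40493013, minus strand, and chr11:58118555-58118584, plus strand, with deleted bases in capitals.
Cnot7: tgctacaaaaataaAtaatggagagatttg
Cnot8: gtttttaattttgtAAaataaagattgctt

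CNOT6 and CNOT6L are alternative exonucleases of the EEP family (the CCR4 type). Their coding sequences are 73.7% identical over 1651 aligned nt, again with no identical stretch longer than 20 nt. Cnot6 (chr11:49671503-49712723, minus strand) had the greatest summed height of the 10 genes, 1720, in 23 exonic peaks. A peak of 524 tags spanned 1002 nt of the 3' UTR, from 319 to 1320 nt after the stop codon, and one of 318 tags lay 1851 to 2046 nt after it. The CDS carried a peak of 301 tags at chr11:49689171-49689353, so 546 of the 1720 lay in the CDS; per kb of CDS the height was 326, the greatest of the 10 genes, against 318 per kb of its 3' UTR. Cnot6l (chr5:96070333-96164171, minus strand) has the longest 3' UTR, 7053 nt, and had the most exonic peaks, 39, of which 31 lay in the 3' UTR. A single peak of 472 tags, 174 to 456 nt after the stop codon, stood far above the next ones of 75, 74 and 69 tags, and 95.6% of the height lay in the 3' UTR. The summed height of Cnot6 exceeded that of Cnot6l by 0.58 on the log2 scale; the excess was 3.45 in the CDS alone and 0.10 in the 3' UTR alone, where the heights were 1174 and 1098.

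Cnot6 and Cnot6l held 7 of the 14 deletion sites. In Cnot6 the site with most deletions lacked a T in 14 of 124 tags (11.3%, interval 6.31 to 18.2) at position 49674728, 465 nt after the stop codon and 15 nt before an annotated end. In Cnot6l it lacked an A in 12 of 236 tags (5.08%, interval 2.65 to 8.71) at position 96076829, 351 nt after the stop codon and 28 nt before an annotated end. Both lay in the gene's tallest peak, at bases covered by fewer tags than the peak's height of 524 and 472. The windows are chr11:49674713-49674742 and chr5:96076814-96076843, both on the minus strand, with the deleted base in capitals.
Cnot6: cagaagacctgattTatgaagttttgtact
Cnot6l: ttgaatgttttcaaAtaagccaatcatttt

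The transcripts of both EEP nucleases also encode a long run of A in the 3' UTR under the tallest peak, and the runs are shown because PABPC1 binds poly(A). In Cnot6 a run of 15 A begins 481 nt after the stop codon and in Cnot6l a run of 16 A begins 382 nt after it. Among 505 runs of at least 15 A in 3' UTRs of protein-coding genes, 55.6% had a peak over them and 20.6% lay under the tallest exonic peak of their gene. Each of the 2 runs also begins just after an annotated transcript end, 1 nt in Cnot6 and 3 nt in Cnot6l, and 11.1% of all such runs begin within 10 nt of one; neither end has AATAAA or ATTAAA in its last 50 nt. In Cnot6, 2 deletion sites with 12 deletions in 53 tags (22.6%) and 6 in 52 (11.5%) fell in the run itself, where a deleted A cannot be placed within the run. Cnot3 holds a longer run, 18 A, in its 5' UTR with no peak over it, as for most of the 34 such 5' UTR runs, of which 8.82% had one. On the single transcript searched for each gene, no other member has a run longer than 9 A. The windows are chr11:49674690-49674719 and chr5:96076776-96076805, minus strand, and chr7:3645478-3645507, plus strand, with the run in capitals. These runs were looked for after the sites had been seen.
Cnot6 run: ttgtactAAAAAAAAAAAAAAAgcaaaatt
Cnot6l run: gtgatttAAAAAAAAAAAAAAAActccaaa
Cnot3 run: aaagaggAAAAAAAAAAAAAAAAAAggcgg

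CNOT4 is a RING-type ubiquitin ligase that associates with the complex less stably in mammals than in yeast. Cnot4 (chr6:35022065-35133724, minus strand) had the lowest RPKM, 4.65, and 16 exonic peaks with a summed height of 263, of which 66.9% lay in the 3' UTR on 48.1% of the bases. Its tallest peak, 68 tags at chr6:35044936-35045031, lay on the 3' UTR of an alternative transcript end, and the next had 44 and 43 tags. Cnot4 had no deletion site.

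**Figure D2:**
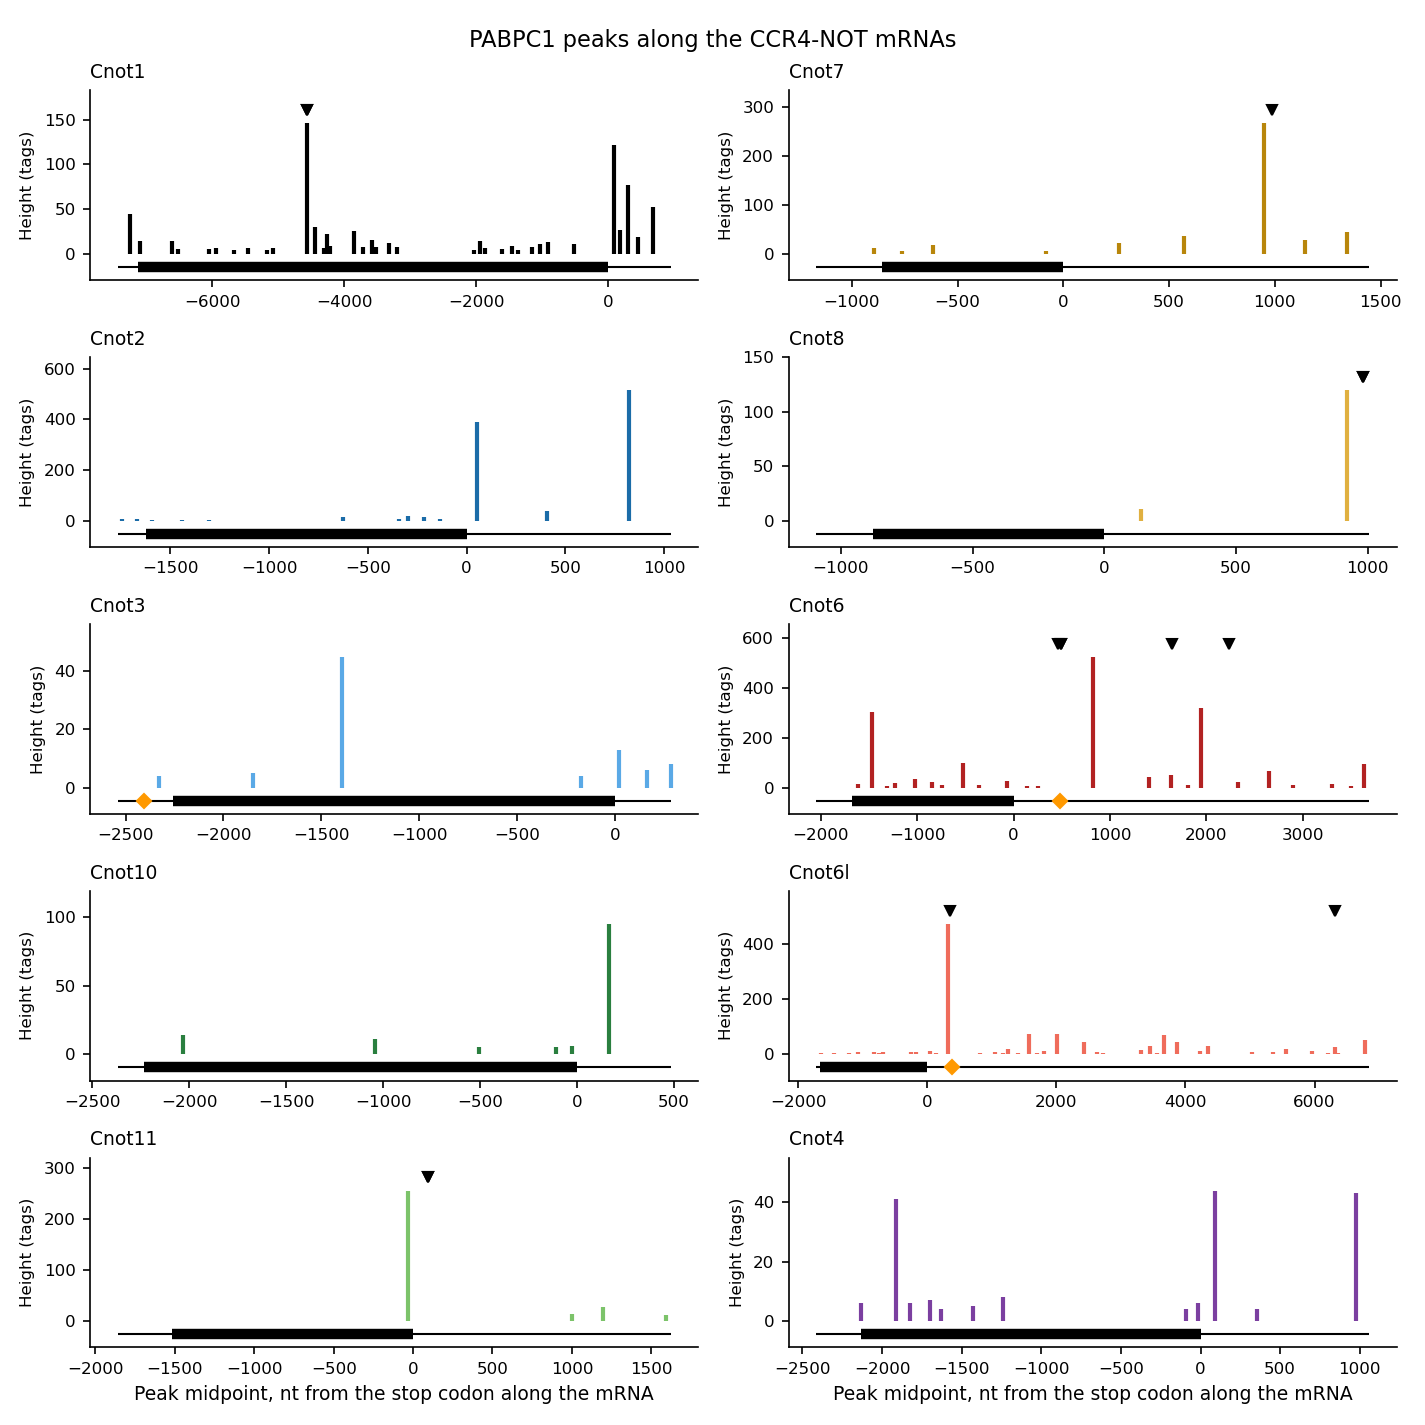
PABPC1 peaks along 1 reference transcript of each CCR4-NOT gene, each drawn at its midpoint, with height in tags (vertical) against distance from the stop codon in nt (horizontal). The thick line is the CDS, black triangles are deletion sites and orange diamonds are runs of at least 15 A; intronic peaks and those off the reference transcript, such as the 68-tag peak of Cnot4, are not drawn. The tallest peaks of Cnot6 and Cnot6l, 524 and 472 tags, are wide enough to take in the run of A drawn beside the midpoint.

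Across the 10 genes 72.7% of the exonic height lay in 3' UTRs, which make up 44.4% of their exonic bases. The CDS held 26.0% of the height on 46.8% of the bases and the 5' UTR 1.26% on 8.83%. In protein-coding genes as a whole the shares of height were 77.8%, 20.7% and 1.45%. Per kb, the members' height was 212 in 3' UTRs and 71.8 in the CDS. The 3' UTR share of height exceeded the share of bases in 9 of 10 genes, against 90.3% of protein-coding genes, and the tallest peak lay in the 3' UTR in 7 of 10, against 90.4%; Cnot1, Cnot3 and Cnot11 were the exceptions to the latter. Without each gene's tallest peak the share of height exceeded the share of bases in 8 of 10: Cnot10 (8.89% on 22.7%) and Cnot6 (54.3% on 64.3%) fell below and Cnot11 (100% on 46.6%) rose above. Peaks over a stop codon were found in 7 of 10 (55.1% of protein-coding genes), over a start codon in 5 of 10 (13.2%) and in the 5' UTR in 4 of 10 (14.6%). The start codon peaks were low: 14 tags in Cnot1, 12 in Cnot7, 7 in Cnot2 and 6 in both Cnot6l and Cnot4, beside a median of 9 over all peaks. The tallest 5' UTR peak had 44 tags, in Cnot1. The members also had more exonic peaks, a median of 11 against 6 in protein-coding genes, which gives such counts more room. At least 10 exonic peaks were found in Cnot1, Cnot2, Cnot6, Cnot6l and Cnot4, 5 of 10 against 26.8%. Intronic peaks, 11 in all, were found in Cnot1, Cnot10, Cnot7, Cnot6l and Cnot4, 5 of 10 against 35.4%; the tallest, 73 tags in Cnot7 at chr8:40507324-40507474, begins inside an exon and has its midpoint in the next intron. The number of 3' UTR peaks and the 3' UTR length had a Spearman's rho of 0.735 over the 10 genes, which share the same pooled list.

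**Figure D3:**
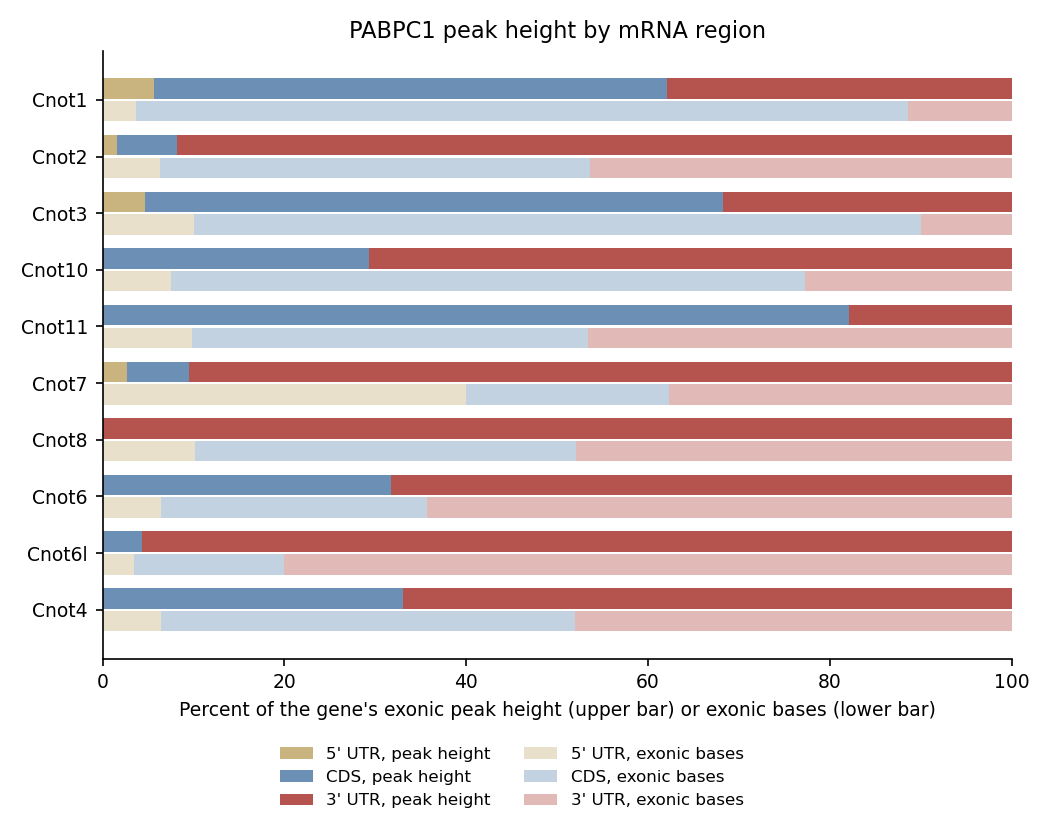
Percent of exonic peak height (upper bar) and of exonic bases (lower, paler bar) by region (5' UTR, CDS, 3' UTR) for each of the 10 CCR4-NOT genes. Cnot11 and Cnot3 have the largest CDS shares of height, 82.1% and 63.5%. The upper bars of Cnot2, Cnot6l, Cnot7 and Cnot8 are mostly 3' UTR, at 91.9%, 95.6%, 90.5% and 100%.

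Deletion sites were listed in 6 of 10 genes, Cnot1, Cnot11, Cnot7, Cnot8, Cnot6 and Cnot6l, against 37% of protein-coding genes and 31.4% of all genes with an RPKM of at least 1. Of protein-coding genes within the RPKM range of the 10, 38.7% had a site. Of the 17 exonic peaks of at least 74 tags, 6 held a site, against 44.1% of such peaks in protein-coding genes, and the 516-tag and 391-tag peaks of Cnot2 held none. Each of the 14 sites lay in a peak of its gene, against 97% of 9868 exonic sites of genes with an RPKM of at least 1, and 12 of 14 lay in a 3' UTR, against 88.2%. The deleted base was A at 8 sites and T at 6; among all exonic sites it was A at 45.0% and T at 48.2%. The deleted share ran from 5.08% to 38.9% with a median of 11.4%, and the median over all 3' UTR sites was 10.4%. The highest share, 38.9% at Cnot6 position 49672954, rests on 7 of 18 tags and its interval runs from 17.3 to 64.3, which takes in the 23.8% of Cnot11. Of the 12 sites in 3' UTRs, 4 lay within 100 nt of an annotated end downstream, against 46.9% of all 3' UTR sites, and the median distance was 989 nt against 124 nt. These values depend on the transcripts used: with all annotated transcripts, which add an end near the Cnot11 sites, 6 of 12 lay within 100 nt, against 49.1%, and the medians were 247.5 nt and 107 nt. With 1 site a run on the basic transcripts the members' median was 527 nt. Where sites within 10 nt are joined, the 14 sites make 10 runs. Adjacent sites may rest on the same tags, which was not measured, so they were not taken as independent.

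**Figure D4:**
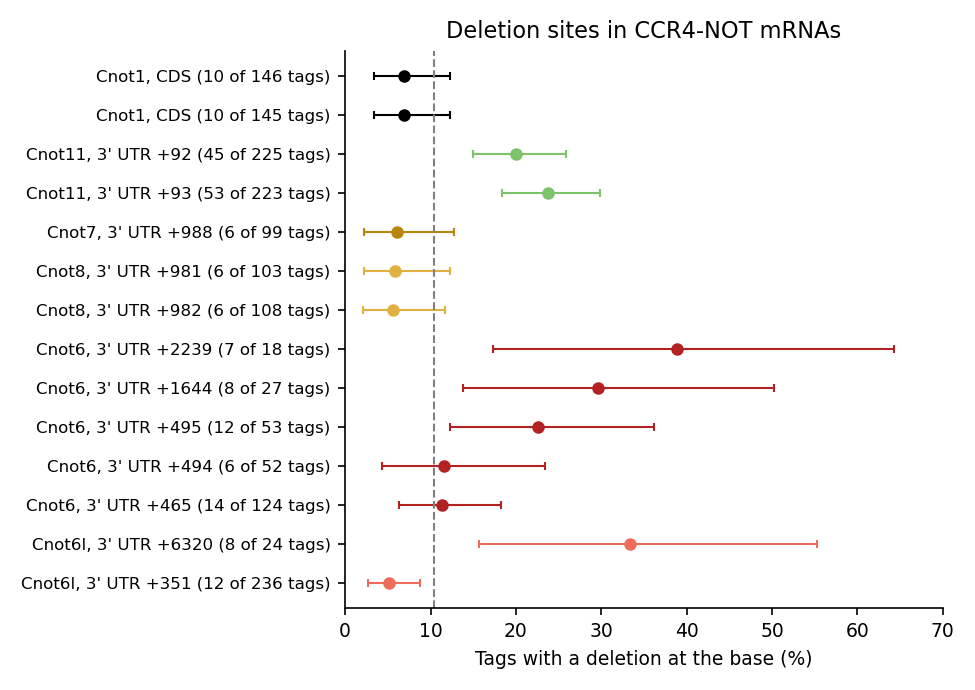
Percent of tags with a deletion at each of the 14 sites in the CCR4-NOT genes, with exact binomial 95% intervals that cover counting error only. The dashed line is the median of all 3' UTR sites, 10.4%; the widest interval, at 38.9%, rests on 18 tags.

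Motifs were searched on the transcript strand within 20 nt of each site, overlaps allowed. AATAAA lay near 3 of 14 sites (31% of all exonic sites, and 3.1% of 3' UTR windows of the same length), ATTAAA near 0 (5.06%), ATATAA near 4 (12.9%, and 1.3% of windows), AAAAAA near 2 (11.7%), TTTTTT near 0 (4.08%), TGTANATA near 0 (2.11%) and ATTTA near 6 (12%). Within 50 nt, AATAAA or ATTAAA was found at 4 of 14 sites, against 50.4%. ATTTA is also more frequent in the members' 3' UTRs in general, in 12.2% of windows against 6.11%. Counted in runs, ATATAA was near 2 of 10 and ATTTA near 5 of 10. In Cnot6, at positions 49673549 and 49674728, and in Cnot6l, at 96070860, the deleted base was a T of an ATTTA, as at 6.31% of all exonic sites; this was noticed after the sequences had been seen. It is listed at the last T each time, but a deletion cannot be placed among adjacent T. The Cnot6 site at 49674728 is printed above, and the other 2 are chr11:49673534-49673563 and chr5:96070845-96070874, minus strand, with the T listed as deleted in capitals. They had 8 deletions in 27 tags (29.6%, interval 13.8 to 50.2) and 8 in 24 (33.3%, interval 15.6 to 55.3). A match is a description of the letters in the window.
Cnot6 second ATTTA: tatgagaagacattTaattgcttatgctgt
Cnot6l ATTTA: tttcttaggtgattTaatgaagtgccatgt

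The farthest annotated end of the gene carried a peak over its last 100 nt in 8 of 10 genes, against 73.3% of protein-coding genes. The same 8 ends hold AATAAA or ATTAAA in their last 50 nt, as do 79.8% of all such ends; Cnot1 and Cnot10 have neither the hexamer nor the peak. Among protein-coding genes the peak was present at 78.6% of ends with a hexamer and 52.4% of ends without. The tallest end peaks were those of Cnot2 at 516 tags, Cnot8 at 120, Cnot6 at 93, Cnot6l at 52, Cnot7 at 45, Cnot4 at 43, Cnot11 at 13 and Cnot3 at 8. In Cnot2 and Cnot8 the end peak was the tallest of the gene. In Cnot6, Cnot6l, Cnot7 and Cnot4 the tallest peak lay upstream of the last end, over an earlier annotated end. The end peak of Cnot2 also covers an earlier annotated end, at 116485509.

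Set against abundance, CLIP signal varied by more than 5 log2 units among the 10 genes. The value of log2((summed height + 1)/(RPKM + 1)) was 6.58 for Cnot6l, 5.55 for Cnot4, 4.92 for Cnot6, 4.72 for Cnot7, 4.47 for Cnot2, 3.44 for Cnot11, 2.48 for Cnot1, 1.81 for Cnot3 and for Cnot8, and 1.42 for Cnot10. The first 6 lay above the median of protein-coding genes with a peak, 2.84, a line that 50% of those genes exceed, and the median of the 10 was 3.95. Cnot6l stood at the 99.6 percentile and Cnot10 at the 17.9 percentile. Long mRNAs have more room for peaks and RPKM is already divided by length, so the height was also taken per kb of exon. On that scale the values were 3.45 for Cnot6l, 3.27 for Cnot4, 2.79 for Cnot7, 2.67 for Cnot2, 2.40 for Cnot6, 1.65 for Cnot11, 0.75 for Cnot8, 0.35 for Cnot3, -0.25 for Cnot10 and -0.58 for Cnot1. The same 6 genes lay above the protein-coding median of 1.19, which 50% exceed. Cnot6l and Cnot4 were at the 95.1 and 94.0 percentiles and Cnot1 at the 10.2 percentile. The scaffold mRNA, first in RPKM, was thus last in height for its length and level. RPKM is the divisor of this value, so a high RPKM in itself lowers it, and the genes compared were not matched for RPKM. The exon lengths also differed: height was divided by exons of basic transcripts, and the RPKM of the nuclease genes by exons of all transcripts. These were 3837 and 5821 nt for Cnot7, 5736 and 6610 for Cnot6, 8814 and 10313 for Cnot6l, and 2099 and 2636 for Cnot8. The value is thus raised by a different amount in each of these genes. For the 4 nuclease genes, height per 1000 recovered mRNA-seq reads was 286 for Cnot6l, 137 for Cnot7, 132 for Cnot6 and 38.4 for Cnot8, beside a median of 61.1 over 4852 protein-coding genes with quartiles of 32.4 and 112.

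**Figure D5:**
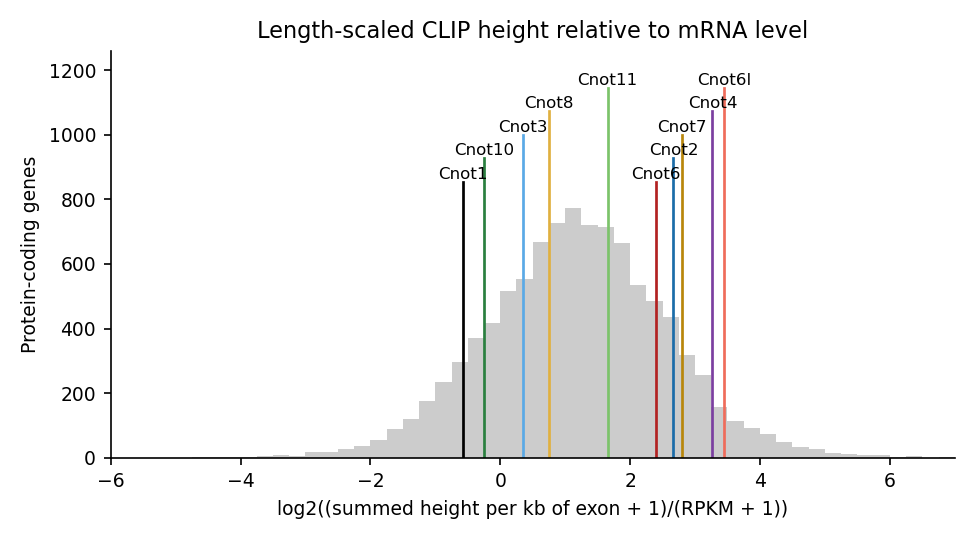
Distribution of log2 height per kb of exon over RPKM in protein-coding genes with a peak (histogram, number of genes), with the 10 CCR4-NOT genes marked. Values run from -0.58 for Cnot1 to 3.45 for Cnot6l around a protein-coding median of 1.19.

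In each nuclease pair, then, the mRNA of lower RPKM had the greater height for its RPKM. This was Cnot6l over Cnot6 (3.45 and 2.40 per kb) and Cnot7 over Cnot8 (2.79 and 0.75). These values are divided by RPKM, so a lower RPKM in itself raises them. Cnot7 and Cnot8 had similar numbers of recovered reads, 3225 and 3415. Their RPKM differed mainly through the exon length of all transcripts, 5821 and 2636 nt. The summed height was greater for Cnot6 than for Cnot6l (1720 and 1148) and greater for Cnot7 than for Cnot8 (441 and 131). The pairs differed in where the signal lay: Cnot7 and Cnot8 had 90.5% and 100% of the height in the 3' UTR, and Cnot6l and Cnot6 had 95.6% and 68.3%. No peak of the 10 genes lay on an exon of another gene on the same strand. With 1 pooled value a gene, none of these differences has an error across replicates.

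The remaining genes of the pathway were counted as a list of 41: other subunits and deadenylases, adaptors that recruit the complex, and decay partners. Of these, 34 had an RPKM of at least 1. The identifiers of 2 adaptors, Tob2 and Samd4b, were not found in the annotation, and each of the 32 that could be assessed had an exonic peak, beside 96.6% of protein-coding genes; 10 of 32 had a deletion site, beside 37%. Their median log2 height over RPKM was 3.51 and per kb of exon 1.59, with 22 and 20 of the 32 genes above the protein-coding medians of 2.84 and 1.19. A deletion site was found in 3 of 10 other subunits and deadenylases, 4 of 17 adaptors and 3 of 5 decay partners. Cnot9, the subunit that binds adaptor proteins beside the scaffold and is listed under its older symbol Rqcd1, had an RPKM of 59.0, 18 exonic peaks with a summed height of 998, a tallest peak of 488 tags and 2 deletion sites. Its log2 height over RPKM was 4.06, and 2.35 per kb, within the range of the 10 members.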

How the data were processed

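The members and gene lists were chosen with earlier results of these data known. All 10 members are named, each with its tallest peak and its deletion site with most deletions. Per the labels, the deposited peak list and deletion list each stand for 3 CLIP-seq samples, and the authors' RPKM for 2 mRNA-seq samples. The score of a peak is the authors' own; the sources used here do not give its meaning, and it was read as height in tags. The deposited counts of deletions and tags were used as given. Per the submitters' processing notes, the build was mm10 and the tools included TopHat2 2.0.12 and HTSeq 0.6.0 for mRNA-seq samples, and Novoalign 3.02.02 and HTSeq 0.6.0 for CLIP-seq samples, with cutadapt 1.4.2 for both; the sources used here give neither the role of each nor the thresholds for peaks and deletions.

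Peaks (by midpoint) and sites were placed by strand on GENCODE M21 basic transcripts in the order 3' UTR, 5' UTR, CDS, non-coding exon, intron. Sequences came from GENCODE M21 transcripts. Coordinates are 1-based. The pseudocount was 1 and the minimum RPKM 1; 18059 listed genes were found in the annotation. A percentile is the share of genes at or below a value. RPKM steps gave 35251228 reads in all, and whole reads were recovered within 0.0001 where the exon length of all transcripts fitted, which held for 4 members; for the others the smallest whole number was taken. Deleted shares have exact Clopper-Pearson intervals and read numbers exact Poisson intervals, both at 95%. Reads are not independent molecules, so they cover counting error only. Paralogs were aligned as coding sequence, in place of the planned protein alignment, with Biopython 1.88. The steps were tested on simulated data.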

Additional observations from a re-analysis of the deposited data

How the results depend on the processing

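No paired analysis was possible because each assay gave 1 pooled value a gene; for the same reason no replicate could be left out. Of 137 alternatives, 3 turned a direction: without the tallest peak of each gene, the 3' UTR share of height crossed the share of bases in Cnot10 (8.89%), Cnot6 (54.3%) and Cnot11 (100%). Exonic peaks in the 10 genes fell from 156 to 88 at or above the median height and to 17 at or above the 90th percentile, and deletion sites from 14 to 7 with at least 10 deletions. The median summed height of 376.5 became 201 with the tallest peak alone. The 3' UTR share of height, 72.7%, became 79.7% in peaks at or above the 90th percentile and 66.1% without each gene's tallest peak. The median distance of 3' UTR sites to an end, 989 nt, became 247.5 nt on all annotated transcripts and 527 nt with 1 site a run. The share of genes with a peak, 87%, became 64.9% with no RPKM minimum, 96.6% in protein-coding genes and 46.9% with peaks at or above the 90th percentile. Cnot6 over Cnot6l, 0.58, became 1.20 per kb, 3.45 in the CDS and 0.10 in the 3' UTR; Cnot7 over Cnot8, 1.75, became 0.88 per kb, and the CDS alone gave no value because Cnot8 had no CDS peak. The comparison per kb among protein-coding genes, the recovered reads, the A runs, the gene ends, the T of ATTTA and the site distances of all genes on all transcripts were added after seeing the data.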
